A study of Mus musculus with 10 samples.

Results

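The expression of 10 genes of fatty acid activation and glycerolipid synthesis was followed in mouse bone marrow derived macrophages, which are primary macrophages grown from marrow cells. They are the acyl-CoA synthetases Acsl1, Acsl3, Acsl4 and Acsl5, the glycerol-3-phosphate acyltransferases Gpat3 and Gpat4, the lysophospholipid acyltransferases Agpat2 and Lpcat2, and the lipins Lpin1 and Lpin2. The genes were chosen by name, by matching the Ensembl identifiers of the 2 deposited tables to these symbols. All 10 were present among 45318 identifiers, and all 10 were among the 13171 genes that passed a filter on low values and were tested.

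Fatty acids enter metabolism when an acyl-CoA synthetase joins them to coenzyme A. The acyl chains are then added to glycerol-3-phosphate in steps, first by a GPAT enzyme, which makes lysophosphatidic acid, and next by an AGPAT enzyme, which makes phosphatidic acid. Lipins remove the phosphate to give diacylglycerol, the branch point between phospholipids and the triacylglycerol of lipid droplets, which is made by DGAT enzymes. Macrophages use these steps to build membrane, to store fatty acids in droplets and to supply precursors of lipid mediators such as prostaglandins and platelet-activating factor.

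The 10 libraries formed 5 groups of 2, all from C57BL/6 mice. The Poly(I:C) group came from cells labelled Tlr4 -/- (KO) that were pre-treated with Poly(I:C), which mimics viral double-stranded RNA, for a time and in a medium that the labels do not state. The KO control and WT control groups were collected after 6 h in medium holding 2% bovine serum albumin and 5% fetal bovine serum (the control medium), and the KO untreated and WT untreated groups have no stated medium or time. The labels give no age and no description of the Tlr4 allele. They also do not say whether the 2 samples of a group are from different animals or cultures, and the p-values below therefore cover the spread between the libraries at hand, possibly technical only. KO and WT stand below for what the labels say: Tlr4 mRNA, which encodes the receptor for bacterial lipopolysaccharide, read 47.9 and 64.7 CPM in KO Poly(I:C), 30.8 and 34.6 CPM in KO control, 32.2 and 38.6 CPM in WT control, 44.3 and 44.9 CPM in KO untreated and 60.2 and 68.9 CPM in WT untreated libraries, so a whole-gene value did not separate the labels.

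Levels are given as CPM, the deposited value of a gene per 1 M of the library's total after trimmed mean of M values (TMM) scaling, and differences are taken between means of log2(CPM + 0.1), so that changes of low genes come out too small. A gene was called when limma's adjusted p was under 0.05. The deposited totals ran from 25.2 to 51.7 M units, and the 2 libraries of a group correlated at 0.992 to 0.994 over genes. The totals of the KO Poly(I:C) and WT control libraries, 41.1 to 51.7 M units, lay above those of the other 6, at 25.2 to 26.7 M units. Scaling by these totals alone moved the median difference of all genes to -0.52 for WT control against WT untreated, to -0.76 for KO Poly(I:C) against KO control and to 0.50 for KO control against WT control, so the direction of small differences depends on the scaling. All 7 macrophage markers were tested, and their summed level was 23297 to 27549 CPM, most of it Lyz2 at 14545 to 19146 CPM. Mertk, at 38.1 to 111 CPM, and Fcgr1, at 114 to 1592 CPM, reached the lowest levels. Of the 7, 3 rose and 1 fell in WT control against WT untreated, where 65.9% of all genes were called. In KO Poly(I:C) against KO control 3 rose, Fcgr1 by 3.66, and 1 fell, where 69.3% of all genes were called. The adipocyte markers summed to at most 0.0587 CPM, with Plin1 and Cfd at 0 in all libraries. In bulk RNA, fewer cells of a type and less RNA per cell cannot be told apart.

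**Figure D1:**
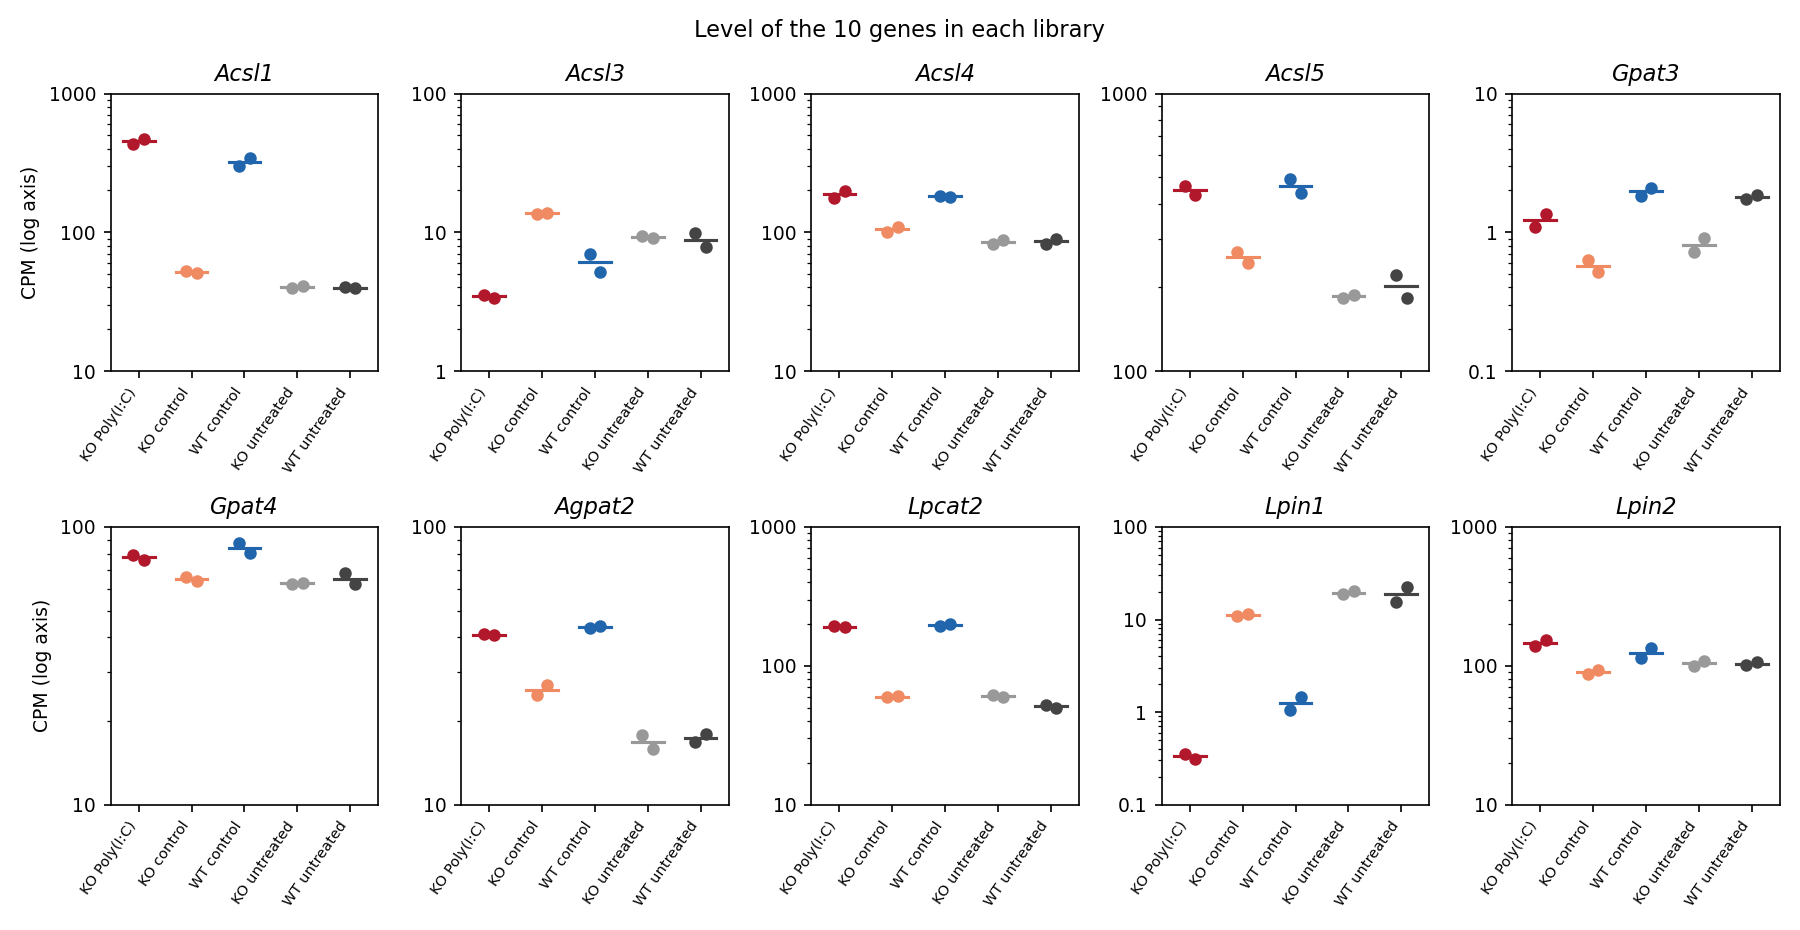
CPM of the 10 genes on log axes, 1 point per library and a line at the mean of the 2 libraries of each group. Acsl1 and Lpcat2 were high in the KO Poly(I:C) and WT control libraries, Lpin1 was low in the same libraries, and Gpat4 spanned only 62.1 to 87.5 CPM.

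The control medium and Poly(I:C) went with large changes of the same enzymes in comparisons that share no library. In WT cells, 9 of the 10 genes changed between control medium and untreated, 7 higher and 2 lower, against a background of 65.9% of all genes tested, 32.8% higher and 33.1% lower. In KO cells, all 10 changed between Poly(I:C) and control medium, 8 higher and 2 lower, against a background of 69.3%, 33.1% higher and 36.3% lower. Acsl1 rose most and Lpin1 fell most among the 10 in both. The median difference of the 10 genes was 0.72 for WT control against WT untreated and 0.75 for KO Poly(I:C) against KO control, where the medians of all genes tested were -0.01 and -0.05. Since most genes were called, the counts say little about these 10 as a group, and the sizes are given gene by gene below. The 9 genes called in WT cells moved in the same direction with Poly(I:C). The share of all genes tested that did so was not computed, so this is not shown to be particular to the 10. KO Poly(I:C) against KO untreated gave 9 calls, 7 higher and 2 lower, against a background of 71.8% (35% higher and 36.9% lower), with an 11.2-fold rise of Acsl1 and Lpin1 at 0.022 times its untreated level. In that comparison Gpat3 was at 0.53 and not called (SE 0.22, limma adjusted p = 0.0521). It was called higher with the authors' own scaling (0.69, adjusted p = 0.0183), with the rlog values (0.40, adjusted p = 0.034), with a pseudocount of 1 (0.29, adjusted p = 0.0403) and without KO Poly(I:C) replicate 1 (0.67), and it turned to -0.17 (adjusted p = 0.487) when libraries were scaled by totals alone. The rises of Gpat4 (0.31) and Lpin2 (0.49) turned to -0.46 and -0.28 under that scaling.

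**Figure D2:**
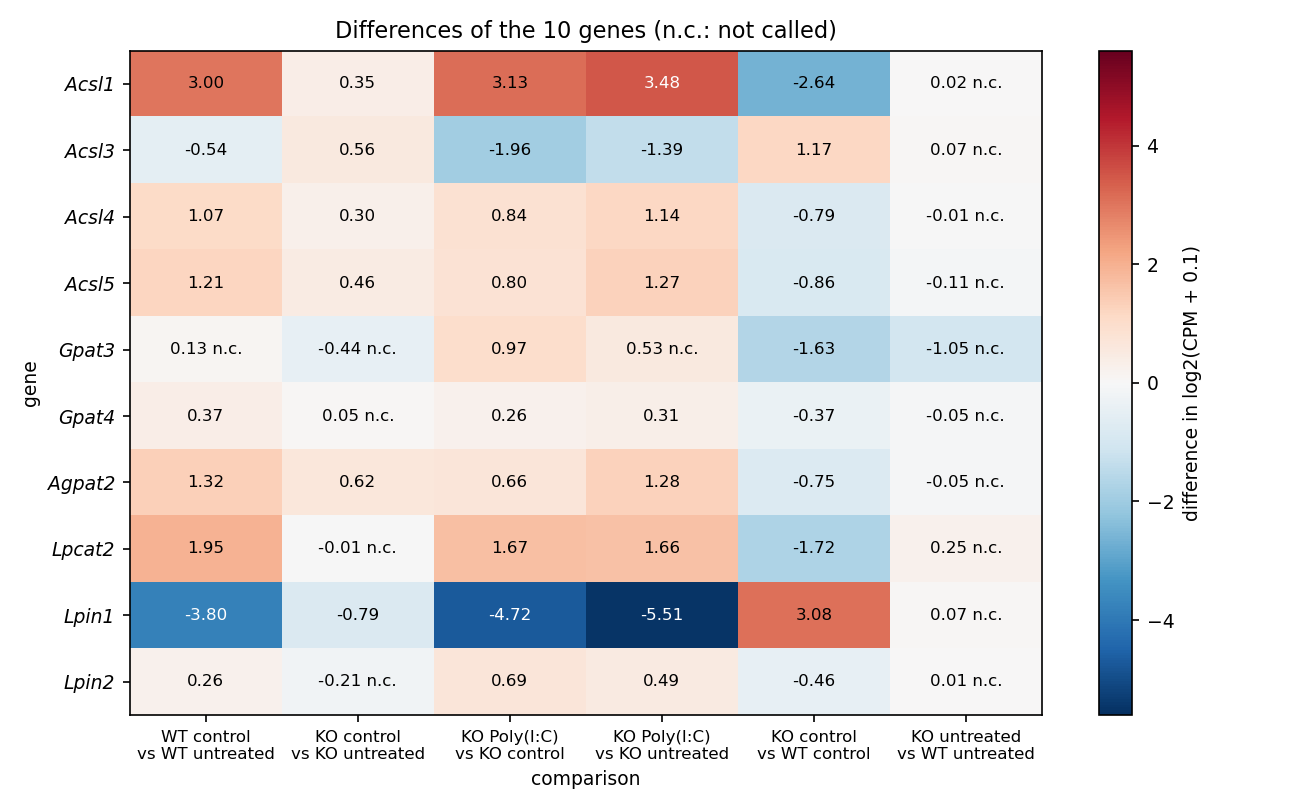
Differences in log2(CPM + 0.1) of the 10 genes (rows) in 6 comparisons (columns), with the value in each cell and n.c. where the adjusted p was 0.05 or more. The columns for WT control against WT untreated and for the Poly(I:C) comparisons hold the deepest colours, with Acsl1 at 3.0, 3.13 and 3.48 and Lpin1 at -3.80, -4.72 and -5.51.

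Acsl1, a long-chain acyl-CoA synthetase known to be induced in mouse macrophages by inflammatory stimuli, gave the largest rise. Its level was 299 and 343 CPM in WT control libraries, against 40.4 and 39.4 CPM in WT untreated libraries. Poly(I:C) libraries of KO cells had 429.6 and 473 CPM, against 52.2 and 50.7 CPM in KO control libraries. The 4 libraries of WT control and KO Poly(I:C) were thus all far above the other 6, with no overlap. The difference was 3.0 (SE 0.08, limma adjusted p = 2.36e-09), an 8.02-fold rise, for WT control against WT untreated, and 3.13 (SE 0.08, limma adjusted p = 1.31e-09), an 8.74-fold rise, for KO Poly(I:C) against KO control. From high to low the groups ran KO Poly(I:C), WT control, KO control, KO untreated and WT untreated, and the libraries of the last pair overlapped.

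RefSeq gives Acsl1 a pair of start sites, and the 250 bases before each (build GRCm38.p6) are shown because Acsl1 carried the largest rise. Capitals in the second mark a match to the sterol response element, searched as TCACNCCAC, and 2 CCAAT boxes, searched as CCAAT, all lying on the reverse strand of what is printed. The first window spans chr8:46470787-46471036 and the second chr8:46490716-46490965, both on the plus strand, and the second lies inside the annotated gene but outside annotated exons.
Acsl1 first window: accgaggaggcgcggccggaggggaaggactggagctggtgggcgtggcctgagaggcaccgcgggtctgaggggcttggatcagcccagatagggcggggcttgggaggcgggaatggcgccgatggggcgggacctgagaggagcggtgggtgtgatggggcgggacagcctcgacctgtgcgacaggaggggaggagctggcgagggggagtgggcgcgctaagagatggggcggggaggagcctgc
Acsl1 second window: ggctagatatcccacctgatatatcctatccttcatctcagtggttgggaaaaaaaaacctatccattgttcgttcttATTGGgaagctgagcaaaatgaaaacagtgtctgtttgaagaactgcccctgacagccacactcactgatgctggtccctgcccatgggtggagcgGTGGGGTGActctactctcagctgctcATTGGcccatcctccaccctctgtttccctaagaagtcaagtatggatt
GC content was 72% in the first window and 48.4% in the second, where the median of all 32851 windows in the table was 52.4%. The sterol response element letters occur in 1.05% of all windows and CCAAT in 33.8%. Neither Acsl1 window held the letters searched for the interferon-stimulated response element (TTTC, any 2 bases, TTTC; 2.98% of all windows), the kappaB site (GGG, any 2 bases, TTTCC; 1.41%) or the gamma-activated sequence (TTCNNNGAA, 7.02%). Such a match or its lack is a description of the letters in the window, and gene-level values do not tell which start was used.

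Acsl4, which prefers arachidonic acid and is known for sensitising cells to ferroptosis, and Acsl5, found on the endoplasmic reticulum and mitochondria, moved in the direction of Acsl1 but less far. Acsl4 had 184 and 179 CPM in WT control, against 82.9 and 89.5 CPM in WT untreated libraries, a 2.1-fold rise (difference 1.07, SE 0.08, limma adjusted p = 1.38e-06). In KO cells it had 178 and 199 CPM with Poly(I:C), against 101 and 109 CPM in control medium, a difference of 0.84 (SE 0.08, limma adjusted p = 6.69e-06). No library of the higher group overlapped the lower group in either comparison, while KO Poly(I:C) and WT control libraries overlapped each other. Acsl5 had 492 and 439 CPM in WT control, against 221 and 183 CPM in WT untreated libraries, a 2.31-fold rise (difference 1.21, SE 0.10, limma adjusted p = 2.88e-06). With Poly(I:C), KO libraries had 466 and 431 CPM of Acsl5, against 268 and 246 CPM in KO control, a difference of 0.80 (SE 0.10, limma adjusted p = 4.65e-05). Here too the groups stood apart and the KO Poly(I:C) and WT control libraries overlapped. Scaled by totals alone, the KO Poly(I:C) differences from KO control were 0.11 for Acsl4 and 0.07 for Acsl5, and neither was called, with adjusted p of 0.191 and 0.582. Of the 10 genes, 5 were called in that comparison under this scaling, against a background of 10966 of all 13171 genes tested.

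Acsl3, an acyl-CoA synthetase of the endoplasmic reticulum and of nascent lipid droplets, went the other way. Libraries of KO cells had 3.52 and 3.37 CPM with Poly(I:C), against 13.6 and 13.8 CPM in control medium. WT control libraries had 6.97 and 5.15 CPM, against 9.85 and 7.78 CPM in WT untreated libraries. The first pair of groups lay far apart, and the second pair was separated by a narrow gap. Acsl3 fell by 1.96 with Poly(I:C) (SE 0.16, limma adjusted p = 2.64e-06) and by 0.54 in WT control medium (SE 0.16, limma adjusted p = 0.0148). The WT call was lost without WT control replicate 2 (-0.33, adjusted p = 0.13), without WT untreated replicate 1 (-0.37, adjusted p = 0.115), with only the compared libraries in the fit (adjusted p = 0.0659) and with the authors' own scaling of the values (-0.38, adjusted p = 0.0927).

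**Figure D3:**
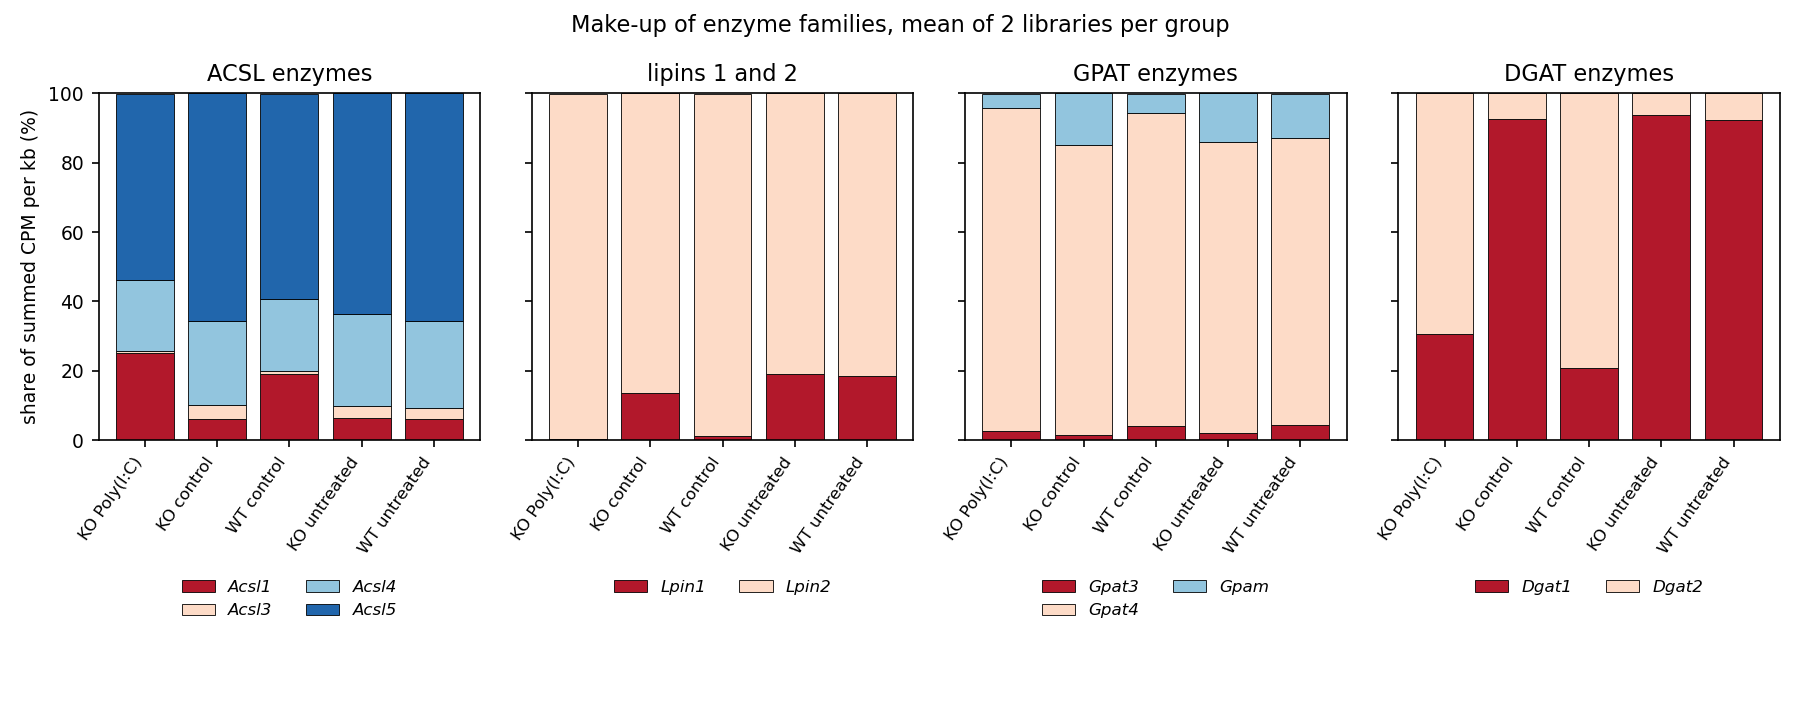
Share of each family's summed CPM per kb of exon (%, from 0 to 100) for ACSL enzymes, lipins 1 and 2, GPAT enzymes and DGAT enzymes, as the mean of 2 libraries per group. The Acsl1 share was 25.2% in KO Poly(I:C) and 19% in WT control, Lpin1 nearly vanished from the lipin pair in those groups, and Dgat2 made up 69.3% and 79.1% of the DGAT pair.

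The make-up of the ACSL family does not depend on how libraries are scaled, because it is a ratio within a library. Per kb of exon, Acsl5 was the most abundant of the 4 in every group, from 53.9% ± 3.12 in KO Poly(I:C) to 65.7% ± 2.21 in KO control (SD, n = 2 each). The length used here is that of all annotated exons of a gene, 10483 bp for Acsl1 and 4864 bp for Acsl5. Undivided by length, their mean levels in KO Poly(I:C) were 451 and 448 CPM, so shares and ranking rest on these lengths. The Acsl1 share was 25.2% ± 1.65 in KO Poly(I:C), against 6.11% ± 0.0551 in KO control, and 19% ± 2.5 in WT control, against 6.02% ± 0.369 in WT untreated libraries (SD, n = 2 each). The Acsl3 share was 0.463% ± 0.0162 in KO Poly(I:C), against 3.9% ± 0.156 in KO control, and 0.86% ± 0.153 in WT control, against 3.18% ± 0.278 in WT untreated libraries (SD, n = 2 each). Neither share overlapped between the groups of a pair, and with 2 libraries against 2 no exact permutation test could pass a threshold of 0.05. The summed level of the 4 enzymes was 171 CPM per kb in KO Poly(I:C), 80.3 in KO control, 161 in WT control, 60.0 in KO untreated and 63.4 in WT untreated libraries.

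Of the enzymes that start glycerolipid synthesis, both Gpat3 and Gpat4 belong to the endoplasmic reticulum, and Gpat4 was by far the more abundant, at 12.6 CPM per kb in WT control libraries, where Gpat3 was at 0.563. Gpat4 had 87.5 and 80.7 CPM in WT control, against 68.2 and 62.1 CPM in WT untreated libraries. With Poly(I:C), KO libraries had 79.3 and 76.2 CPM of Gpat4, against 66.1 and 63.8 CPM in KO control. The groups did not overlap, but the gaps were small. The differences were 0.37 (SE 0.08, limma adjusted p = 0.00169) in WT and 0.26 (SE 0.08, limma adjusted p = 0.0116) in KO cells, and both turned over when libraries were scaled by totals alone, to -0.16 and -0.47. The KO call was also lost without KO Poly(I:C) replicate 1 (0.23, adjusted p = 0.0628) and without KO control replicate 2 (0.23, adjusted p = 0.0737).

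Gpat3 was the least abundant of the 10 genes in untreated WT cells per kb of exon. Its level was 1.09 and 1.35 CPM in KO Poly(I:C), 0.627 and 0.518 CPM in KO control, 1.84 and 2.1 CPM in WT control, 0.719 and 0.908 CPM in KO untreated and 1.73 and 1.85 CPM in WT untreated libraries. All 4 WT libraries lay above all 6 KO libraries, and the WT control and WT untreated libraries overlapped. Gpat3 was lower by 1.63 on the log2 scale in KO control than in WT control (difference -1.63, SE 0.22, limma adjusted p = 0.000122). Without treatment the difference was -1.05 (SE 0.22, unadjusted p = 0.000779, limma adjusted p = 0.186), which did not pass. Gpat3 rose by 0.97 in KO Poly(I:C) against KO control (SE 0.22, limma adjusted p = 0.00283), and this rise was 0.31 and not called (adjusted p = 0.209) when libraries were scaled by totals alone. The medium difference in WT cells was 0.13 (SE 0.22, limma adjusted p = 0.615). An antisense transcript, 4930458D05Rik, shares 1052 bp of exon with Gpat3 but read at most 0.0989 CPM.

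Agpat2 turns lysophosphatidic acid into phosphatidic acid and is known as a gene of congenital lipodystrophy. Its level was 43.3 and 44.1 CPM in WT control, against 16.8 and 18 CPM in WT untreated libraries, and the difference was 1.32 (SE 0.09, limma adjusted p = 6.8e-07), a 2.5-fold rise. KO libraries had 41.2 and 40.7 CPM with Poly(I:C), against 24.8 and 26.9 CPM in control medium, a difference of 0.66 (SE 0.09, limma adjusted p = 8.65e-05) that became -0.07 under scaling by totals alone. The groups of each pair stood well apart, and KO control lay between the untreated groups and the KO Poly(I:C) and WT control groups.

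Lpcat2, which acylates lysophosphatidylcholine and also acetylates its ether form to make platelet-activating factor in inflammatory cells, changed more than Agpat2. WT control libraries had 195 and 201 CPM, against 52.2 and 49.7 CPM in WT untreated libraries. KO libraries had 193 and 189 CPM with Poly(I:C), against 59.2 and 60.8 CPM in control medium. All 4 high libraries lay between 189 and 201 CPM, and the other 6 between 49.7 and 61.3 CPM. The rises were 1.95 (SE 0.06, limma adjusted p = 8.18e-09), or 3.87-fold, in WT control medium and 1.67 (SE 0.06, limma adjusted p = 1.13e-08), or 3.18-fold, with Poly(I:C).

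The lipins changed in opposite directions. Lpin1, a phosphatidate phosphatase that also acts as a transcriptional coactivator, had 1.06 and 1.45 CPM in WT control, against 15.6 and 22.2 CPM in WT untreated libraries. With Poly(I:C), KO libraries had 0.352 and 0.309 CPM, against 10.9 and 11.5 CPM in control medium. The 4 libraries of WT control and KO Poly(I:C) were all below 2 CPM and the other 6 all above 10 CPM. Lpin1 fell by 3.80 (SE 0.20, limma adjusted p = 1.18e-07), to 0.0718 times its WT untreated level, and by 4.72 (SE 0.20, limma adjusted p = 1.92e-08), to 0.038 times its KO control level. From high to low the groups ran KO untreated, WT untreated, KO control, WT control and KO Poly(I:C), with overlapping libraries only between the untreated groups.

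Lpin2, whose human counterpart is mutated in the autoinflammatory bone disorder Majeed syndrome, was high throughout. Its level was 138 and 154 CPM in KO Poly(I:C), against 87.3 and 93 CPM in KO control, and 114 and 135 CPM in WT control, against 101 and 106 CPM in WT untreated libraries. The differences were 0.69 (SE 0.09, limma adjusted p = 9.05e-05) in KO and 0.26 (SE 0.09, limma adjusted p = 0.0322) in WT cells, and both turned over under scaling by totals alone, to -0.04 and -0.27. The WT call was also lost without WT control replicate 2 (0.14, adjusted p = 0.252), without WT untreated replicate 1 (0.23, adjusted p = 0.12), without WT untreated replicate 2 (0.29, adjusted p = 0.0535) and with only the compared libraries in the fit (adjusted p = 0.0732). Within each library, Lpin1 took 0.288% ± 0.0486 of the summed Lpin1 and Lpin2 level per kb in KO Poly(I:C), against 13.6% ± 0.0727 in KO control, and 1.25% ± 0.132 in WT control, against 18.6% ± 3.28 in WT untreated libraries (SD, n = 2 each). This share does not depend on the scaling, and Lpin3, the other family member, read at most 0.033 CPM.

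The 250 bases before the RefSeq starts of Lpin1 (chr12:16610967-16611216, minus strand) and before the first start of Lpin2 (chr17:71183282-71183531, plus strand, inside the annotated gene but outside annotated exons), both GRCm38.p6, are shown because these related genes moved in opposite directions. Capitals mark the E-box, searched as CACGTG and found in 6.02% of all windows.
Lpin1 window: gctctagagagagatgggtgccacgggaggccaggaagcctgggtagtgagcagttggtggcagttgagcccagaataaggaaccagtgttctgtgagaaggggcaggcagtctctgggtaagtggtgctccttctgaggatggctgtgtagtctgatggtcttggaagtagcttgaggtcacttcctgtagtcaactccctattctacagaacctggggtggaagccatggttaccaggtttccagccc
Lpin2 first window: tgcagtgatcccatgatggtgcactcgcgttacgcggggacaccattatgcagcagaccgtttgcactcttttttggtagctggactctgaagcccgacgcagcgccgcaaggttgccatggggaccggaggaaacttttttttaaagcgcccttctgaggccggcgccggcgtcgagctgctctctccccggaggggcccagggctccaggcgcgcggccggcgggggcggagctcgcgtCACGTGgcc
The E-box letters stand in the Lpin2 window and in no other of the 12 windows found for 9 of the 10 genes. The Lpin1 window held none of the 9 motifs searched on both strands, the remaining ones being the AP-1 site (TGANTCA, 6.75% of all windows), the cyclic AMP response element (TGACGTCA, 1.55%) and the PU.1 site (GAGGAAGT, 2.44%), none of which stood in any of the 12 windows. CCAAT stood in 5 of the 12. No motif overlaps another in the windows printed.

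**Figure D4:**
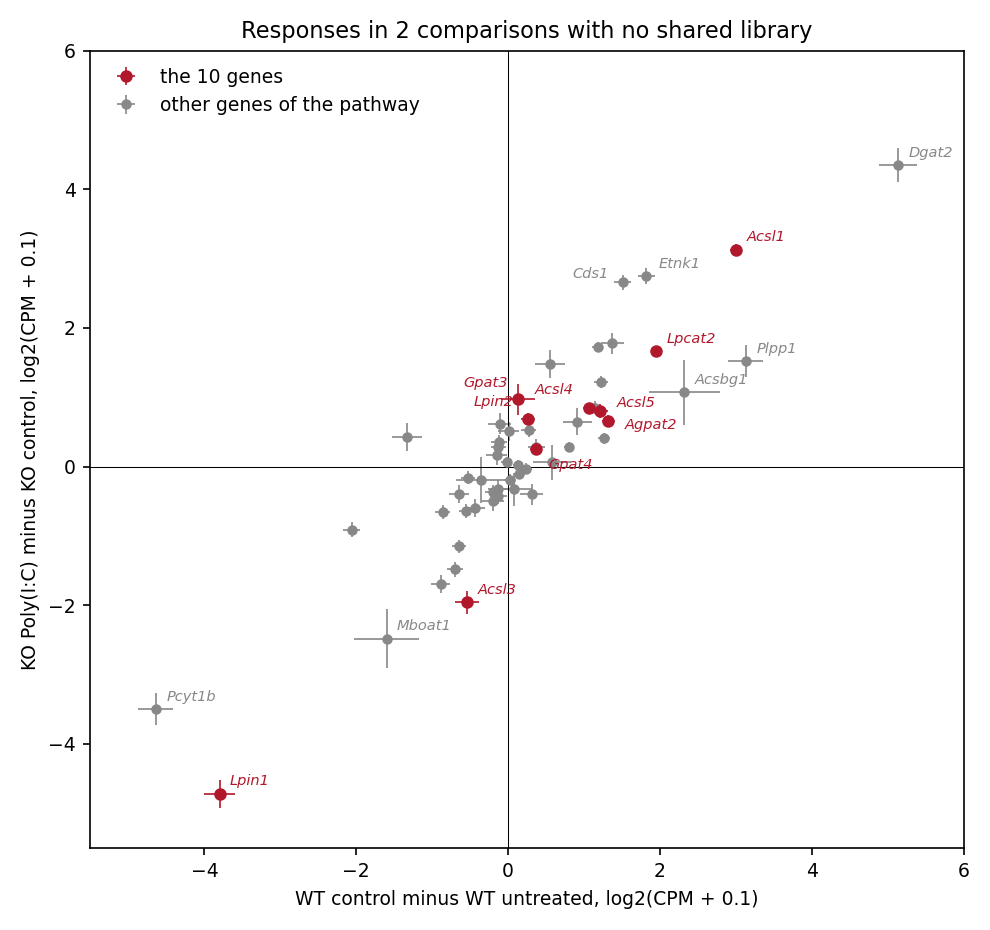
Difference of WT control from WT untreated (x axis) against difference of KO Poly(I:C) from KO control (y axis), both in log2(CPM + 0.1) with SE bars, for the 10 genes (red) and the other tested genes of the pathway except Etnk2 (grey). These comparisons share no library, and Acsl1, Lpcat2 and Dgat2 lie far in the upper right, Lpin1 and Pcyt1b in the lower left.

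KO control libraries held less of most of these enzymes than WT control libraries. All 10 genes were called between them, 2 higher and 8 lower, against a background of 61.1% of all genes tested (31.2% higher and 29.9% lower), and the median difference was -0.77, where that of all genes was 0.04. Acsl1 had 52.2 and 50.7 CPM in KO control, against 299 and 343 CPM in WT control (difference -2.64, SE 0.08, limma adjusted p = 6.74e-09). Lpcat2 differed by -1.72 (SE 0.06, limma adjusted p = 1.83e-08) and Gpat3 by -1.63, as given above. The other 5 lower genes were Acsl5 at -0.86, Acsl4 at -0.79, Agpat2 at -0.75, Lpin2 at -0.46 and Gpat4 at -0.37, with limma adjusted p from 1.59e-05 to 0.00184. Of these 5, Gpat4 and Lpin2 turned to 0.11 and 0.02 under scaling by totals alone. Lpin1 was higher in KO control by 3.08 (SE 0.20, limma adjusted p = 5.99e-07) and Acsl3 by 1.17 (SE 0.16, limma adjusted p = 0.00015).

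Untreated cells gave no call for any of the 10 genes between the labels KO and WT, where limma called 0.167% of all genes tested, or 22 of 13171, with 0.0835% higher and 0.0835% lower. Of the 10, 2 had an unadjusted p under 0.05 in limma, Gpat3 and Lpcat2, where 1144 of all 13171 genes tested did. Lpcat2 had 61.3 and 59.7 CPM in KO untreated, against 52.2 and 49.7 CPM in WT untreated libraries, with no overlap and a difference of 0.25 (SE 0.06, unadjusted p = 0.00337, limma adjusted p = 0.332). For the remaining 8 genes the differences ran from -0.11 in Acsl5 to 0.07 in Acsl3 and Lpin1, and the libraries of the labels overlapped in each of the 8.

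In KO cells the control medium went with small changes. Of the 10 genes, 6 were called against KO untreated, 5 higher and 1 lower, against a background of 19.9% (10.9% higher and 9.05% lower), with a median difference of 0.17, where that of all genes was 0.004. Agpat2 had 24.8 and 26.9 CPM in KO control, against 17.8 and 15.9 CPM in KO untreated libraries, a 1.54-fold rise (difference 0.62, SE 0.09, limma adjusted p = 0.00142). Acsl3 rose by 0.56, Acsl5 by 0.46, Acsl1 by 0.35 and Acsl4 by 0.30, with limma adjusted p from 0.0101 to 0.038. Lpin1 had 10.9 and 11.5 CPM in KO control, against 18.9 and 20.1 CPM in KO untreated libraries, and fell by 0.79 (SE 0.20, limma adjusted p = 0.0206). Lpin2 at -0.21, Gpat3 at -0.44, Gpat4 at 0.05 and Lpcat2 at -0.01 did not pass. Leaving out any 1 of the 4 libraries left 1 or 2 calls, Agpat2 each time and Acsl5 without KO control replicate 2 or KO untreated replicate 2. The calls of Acsl3 and Acsl4 were also lost with the authors' own scaling (adjusted p = 0.0624 and 0.0626), and that of Acsl3 with no filter (adjusted p = 0.0668) and with scaling by totals alone (adjusted p = 0.0684). A fit with the replicate number as a block also called Lpin2 (adjusted p = 0.0412).

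**Figure D5:**
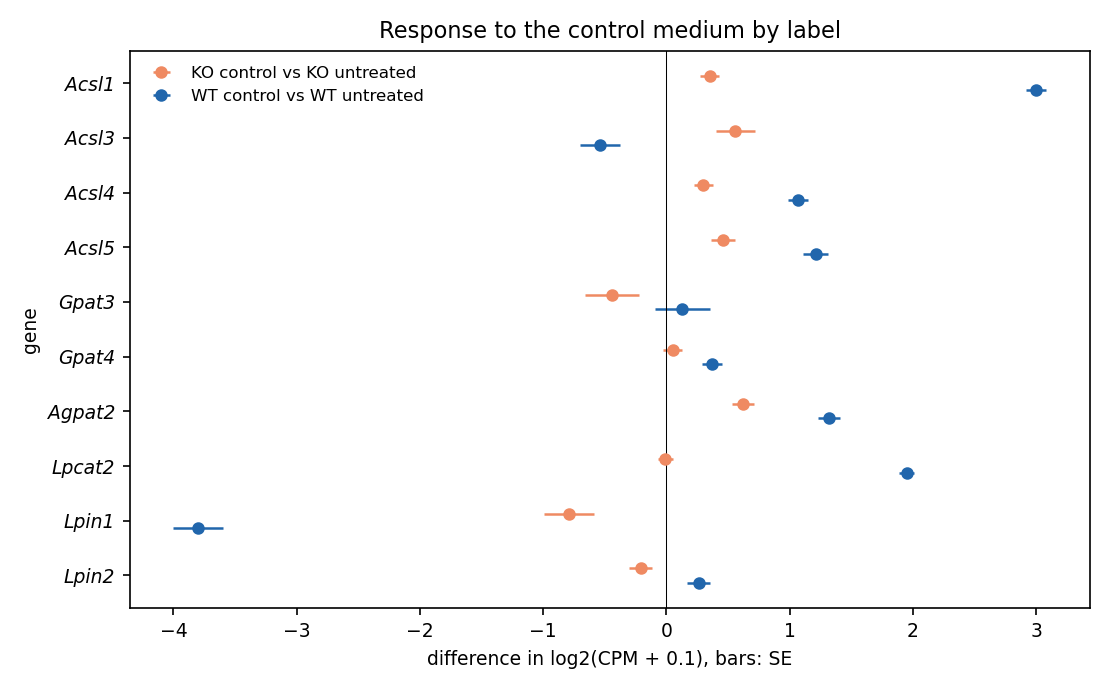
Difference of control medium from untreated cells in log2(CPM + 0.1), with SE bars, for libraries labelled KO (orange, upper point) and WT (blue, lower point). The WT points of Acsl1, Lpcat2 and Lpin1 lie far from 0 at 3.0, 1.95 and -3.80, against 0.35, -0.01 and -0.79 for KO.

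The response to the control medium differed between the labels for 9 of the 10 genes when the difference itself was tested as an interaction in limma, 2 higher and 7 lower, against a background of 45.9%, 22.3% higher and 23.6% lower. The response of Acsl1 was 0.35 in KO and 3.0 in WT cells, an interaction of -2.65 (SE 0.12, limma adjusted p = 2.63e-07). Lpcat2 responded by -0.01 in KO and 1.95 in WT cells, an interaction of -1.97 (SE 0.09, limma adjusted p = 3.77e-07). The fall of Lpin1 was 0.79 in KO and 3.80 in WT cells, an interaction of 3.01 (SE 0.28, limma adjusted p = 1.96e-05). Acsl3 moved in opposite directions, by 0.56 in KO and -0.54 in WT cells, an interaction of 1.10 (SE 0.23, limma adjusted p = 0.00345). Acsl4 at -0.78, Acsl5 at -0.74, Agpat2 at -0.71, Lpin2 at -0.47 and Gpat4 at -0.32 were called as well, and Gpat3 at -0.57 (SE 0.31, limma adjusted p = 0.161) was not. Under scaling by totals alone Gpat4 turned to 0.17 and Lpin2 to 0.02. With that scaling 5 of the 10 were called, against a background of 8213 of all 13171 genes tested. Both calls were lost in some fits that left out 1 library, Gpat4 in 6 of 8 and Lpin2 in 3 of 8.

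Of 57 other genes of these pathways, 46 were tested, and they moved in both directions. For WT control against WT untreated, 17 rose, 12 fell and 17 were not called, with a median of 0.02. Of all genes tested, 32.8% rose and 33.1% fell there. For KO Poly(I:C) against KO control, 19 rose, 16 fell and 11 were not called, with a median of 0.07. The background there was 33.1% higher and 36.3% lower. For KO control against WT control the counts were 11 higher, 19 lower and 16 not called, against 31.2% higher and 29.9% lower over all genes. For KO control against KO untreated they were 1 higher, 10 lower and 35 not called, against 10.9% higher and 9.05% lower. None was called between the untreated labels, where 0.167% of all genes were. Etnk2 is listed at 0 in 6 libraries and passed the filter on low values only through the KO Poly(I:C) libraries. Its rise there is therefore no independent result. Without it, 16 rose, 12 fell and 17 were not called for WT control against WT untreated, with a median of 0.01. For KO Poly(I:C) against KO control, 18 rose, 16 fell and 11 were not called without it, with a median of 0.06. For KO control against WT control the counts without it were 11 higher, 18 lower and 16 not called.

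Dgat2, the enzyme that makes triacylglycerol for lipid droplets, rose more than any of the 10 genes. Its level was 30.6 and 32.9 CPM in WT control, against 0.784 and 0.825 CPM in WT untreated libraries (difference 5.14, SE 0.25, limma adjusted p = 7.03e-08). KO libraries had 17.6 and 15.7 CPM with Poly(I:C), against 0.989 and 0.518 CPM in control medium (difference 4.35, SE 0.25, limma adjusted p = 1.55e-07). Dgat1, the other enzyme of that step, had 8.42 and 8.21 CPM in WT control, against 9.54 and 9.53 CPM in WT untreated libraries (difference -0.20, SE 0.10, limma adjusted p = 0.125), which became a call when libraries were scaled by totals alone (-0.72, adjusted p = 0.000237). With Poly(I:C), KO libraries had 7.52 and 7.1 CPM of Dgat1, against 9.3 and 9.65 CPM in KO control and 9.9 and 9.69 CPM in KO untreated libraries. Dgat1 fell by 0.37 against KO control (SE 0.10, limma adjusted p = 0.0096) and by 0.42 against KO untreated (SE 0.10, limma adjusted p = 0.00468). Both calls were lost with the authors' own scaling (-0.19 and -0.24, adjusted p = 0.195 and 0.0974), and the first also without KO Poly(I:C) replicate 2 (adjusted p = 0.0507) or KO control replicate 2 (adjusted p = 0.0595). The Dgat2 share of the pair per kb was 69.3% ± 0.833 in KO Poly(I:C), against 7.3% ± 3.17 in KO control, and 79.1% ± 1.14 in WT control, against 7.72% ± 0.255 in WT untreated libraries (SD, n = 2 each). Gpam, the mitochondrial GPAT enzyme, fell by 0.89 in WT control against WT untreated (SE 0.13, limma adjusted p = 0.000195) and by 1.69 in KO Poly(I:C) against KO control (SE 0.13, limma adjusted p = 1.6e-06).

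In the phospholipid branch, the enzymes that make CDP-diacylglycerol from phosphatidic acid moved apart. Cds1 had 32.3 and 33.8 CPM in WT control, against 12.3 and 10.8 CPM in WT untreated libraries (difference 1.51, SE 0.11, limma adjusted p = 1.13e-06), and Cds2 fell by 0.86 (SE 0.10, limma adjusted p = 2.59e-05). With Poly(I:C), Cds1 rose by 2.66 in KO cells (SE 0.11, limma adjusted p = 1.63e-08) and Cds2 fell by 0.66 (SE 0.10, limma adjusted p = 0.000143). The Cds1 share of the pair per kb was 57.2% ± 2.8 in KO Poly(I:C), against 11.7% ± 0.417 in KO control, and 44.6% ± 0.364 in WT control, against 13.5% ± 2.27 in WT untreated libraries (SD, n = 2 each). Pcyt1b, an isoform of the rate-limiting enzyme of phosphatidylcholine synthesis, had 0.112 and 0.148 CPM in WT control, against 6.05 and 5.21 CPM in WT untreated libraries, and fell by 4.64 (SE 0.23, limma adjusted p = 8.73e-08). It fell by 3.50 with Poly(I:C) and by 1.47 in KO control against KO untreated. Etnk1, an ethanolamine kinase, rose by 1.82 in WT control medium and by 2.75 with Poly(I:C). Cept1, which joins head groups to diacylglycerol, and Pgs1, which starts cardiolipin synthesis, rose with Poly(I:C) by 1.78 and 1.73. Etnk2 was listed at 0 in all KO control, KO untreated and WT untreated libraries and had 0.441 and 0.309 CPM in KO Poly(I:C) libraries.

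Among phosphatidate phosphatases outside the lipins, Plpp1 had 23.6 and 17.7 CPM in WT control, against 2.54 and 1.98 CPM in WT untreated libraries, an 8.76-fold rise (difference 3.13, SE 0.23, limma adjusted p = 1.12e-06). Agpat4, a relative of Agpat2, had 12.3 and 12.3 CPM in KO control, against 43.3 and 39.1 CPM in WT control (difference -1.73, SE 0.09, limma adjusted p = 1.09e-07). Mboat1, a lysophospholipid acyltransferase, was higher in KO control than in WT control by 1.51 (SE 0.43, limma adjusted p = 0.0115) and fell by 1.60 in WT control against WT untreated. The first call was lost without KO control replicate 1 (1.43, adjusted p = 0.0559) or WT control replicate 2 (1.25, adjusted p = 0.0798), and the second without WT control replicate 2 (-1.33, adjusted p = 0.0588) or WT untreated replicate 1 (-1.16, adjusted p = 0.07). Other acyl-CoA synthetases did not all follow Acsl1. Acsf2 fell by 2.06 in WT control and by 1.29 in KO control against untreated cells of the same label. Acsbg1, at 1.73 and 1.3 CPM in WT control, against 0.345 and 0.132 CPM in WT untreated libraries, rose by 2.32 (SE 0.47, limma adjusted p = 0.00145). In KO control against KO untreated, Acss1 and Acss2, which activate acetate, fell by 1.09 and 0.83, Slc27a1, a fatty acid transporter with synthetase activity, by 0.56, Mboat7 by 0.51, Ptdss2 by 0.43 and Agpat4 by 0.42. The last 2 calls and that of Slc27a1 were lost under some alternatives. Slc27a1 was not called without KO control replicate 2 or KO untreated replicate 1 (adjusted p = 0.183 and 0.157), with no filter (0.0587) or with only the compared libraries (0.0977). Ptdss2 was not called without KO control replicate 1, KO control replicate 2 or KO untreated replicate 2 (adjusted p = 0.116, 0.18 and 0.232), with no filter (0.0706) or with only the compared libraries (0.053). Agpat4 was not called without those same libraries in turn (adjusted p = 0.0531, 0.0617 and 0.0666).

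Across the 10 libraries, Acsl1, Acsl4, Acsl5, Agpat2 and Lpcat2 varied together, with Pearson's r of 0.93 to 0.99 between each pair, and Lpin1 ran opposite to them at -0.92 to -0.99. Their orders of group means were not the same, with KO Poly(I:C) highest for Acsl1 and Acsl4 and WT control highest for Acsl5, Agpat2 and Lpcat2. For Acsl4 and Acsl5 the libraries of these groups overlapped, and KO Poly(I:C) was not tested against WT control. Gpat3 stood apart, with r between -0.53 and 0.55 against the other 9. The genes whose pattern was most like that of Acsl1 were Tapbpl (r = 0.999) and Cd40 (0.998), a costimulatory receptor, among 1833 tested genes with r of 0.95 or more. Lpcat2 was most like Il12b (0.997), which encodes a subunit of interleukin 12, and Zdhhc2 (0.996), and Agpat2 most like Pdgfb and Phlda1 (both 0.997). Lpin1 was most like Lhfpl2 and Plcg1 (both 0.996), Acsl3 like Akap1 (0.995) and Mrpl50 (0.991), Acsl4 like C920009B18Rik (0.998) and Plek (0.997), Acsl5 like Gspt1 and Ets2 (both 0.995), Gpat4 like Trip13 (0.988) and Msantd3 (0.986), and Lpin2 like Bcap31 (0.992) and Scyl2 (0.988). For Gpat3 no gene reached 0.95, and the nearest were Wdfy1 (0.942), at 10.3 CPM in KO untreated against 50.1 CPM in WT untreated libraries on average, and Itgb7 (0.926). These correlations describe 10 libraries that share 5 groups and 1 scaling, so any gene that moved between the same groups scores high.

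Some genes listed as markers of other cells, neutrophil markers first, were higher in the KO Poly(I:C) and WT control groups. Of 9 neutrophil markers listed, 7 were tested, and their summed level was 100.4 to 108 CPM in KO Poly(I:C), 16.4 to 20.8 CPM in KO control, 84.8 to 113 CPM in WT control, 27.1 to 30.6 CPM in KO untreated and 20.6 to 37.3 CPM in WT untreated libraries. Of the 7, 5 rose in WT control against WT untreated, 6 rose in KO Poly(I:C) against KO control and 6 were lower in KO control than in WT control. S100a8 and S100a9, which activated macrophages also express, carried most of the sum. The granule genes Camp, Ngp and Ltf rose in both comparisons, by 3.06, 0.68 and 0.79 in WT control and by 1.99, 1.74 and 1.52 with Poly(I:C). Mpo, a granule gene as well, was called in neither. It was at -0.26 in WT control (limma adjusted p = 0.554) and at 0.87 with Poly(I:C) (limma adjusted p = 0.0605). Elane, the neutrophil elastase gene, rose by 2.81 with Poly(I:C) and was at 1.03 and not called in WT control (limma adjusted p = 0.0708). Ly6g read at most 0.224 CPM. Stromal markers were also highest in these groups, with sums of 7.72 to 9.72 CPM in KO Poly(I:C), 4.42 to 6.28 CPM in KO control, 12.9 to 16.1 CPM in WT control, 4.02 to 4.15 CPM in KO untreated and 3.92 to 6.6 CPM in WT untreated libraries. Of 5 stromal markers tested, Pdgfrb was the 1 called, at 4.62 CPM in KO Poly(I:C), against 0.848 CPM in KO control, and 9.4 CPM in WT control, against 0.561 CPM in WT untreated libraries on average. Kit, the mast cell marker that could be tested, rose by 2.44 with Poly(I:C) and by 2.11 in WT control, while Cpa3 and Fcer1a were at 0 in all libraries. Dendritic cell markers summed to 0.33 to 0.999 CPM, and 1 of 2 tested, Xcr1, rose with Poly(I:C) by 1.69. On average Xcr1 read 0.331 CPM in KO Poly(I:C) and at most 0.0732 CPM in the other groups. Kit read 1.06 CPM in KO Poly(I:C), 0.765 CPM in WT control and at most 0.115 CPM in the others. Kit passed the filter on low values only through those groups, and Xcr1 only through KO Poly(I:C). The rises of Kit and Xcr1 there are therefore no independent results. Mast cell, erythroid and T and NK cell markers summed to at most 1.17, 0.495 and 0.033 CPM. The part of these markers in the values of the 10 genes was not tested. Of 4 B cell markers only Cd79b was tested, at 7.63 to 52.7 CPM, and it was lower in the KO Poly(I:C) and WT control groups than in the others.

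Some reads can belong to overlapping genes, and whether counting used the strand was not given in the sources used here. On the opposite strand, Acsl1 shares 1039 bp of exon with Gm45244 and Lpcat2 shares 287 bp with Gm45472. Neither of these overlapping genes has a value in the data. Agpat2 shares 64 bp with Egfl7 on the opposite strand, at 0.518 to 1.35 CPM. Acsl5 shares 404 bp of exon with the antisense gene Zdhhc6, at 78.6 to 112 CPM, and Acsl3 shares 244 bp with Utp14b on the same strand, at 3.11 to 11.6 CPM. On average Utp14b read 3.48 CPM in KO Poly(I:C), 11 in KO control, 6.95 in WT control, 5.66 in KO untreated and 6.26 in WT untreated libraries. Acsl3 read 3.45, 13.7, 6.06, 9.22 and 8.82 CPM in that order. Both were highest in KO control and lowest in KO Poly(I:C), and the part of Utp14b reads in the Acsl3 values was not tested. In the GENCODE M21 annotation of GRCm38, which may not be the authors' build, Acsl1 lies at chr8:46471037-46536051 on the plus strand, Lpcat2 at chr8:92855339-92919279 on the plus strand, Lpin1 at chr12:16535669-16610966 on the minus strand and Gpat3 at chr5:100845713-100899102 on the plus strand. Also on the plus strand are Acsl3 at chr1:78657825-78707743, Acsl5 at chr19:55251938-55297720 and Lpin2 at chr17:71182560-71249817, and on the minus strand Acsl4 at chrX:142317993-142390535, Gpat4 at chr8:23171265-23208346 and Agpat2 at chr2:26593057-26604417.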

How the data were processed

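The libraries were made with the TruSeq Stranded mRNA kit from RNA purified with the Qiagen RNeasy kit, per the labels' protocols. DESeq2, RSEM 1.2.12, STAR 2.4.0d and Trim Galore 0.2.8 appear without roles in the notes on processing, per the submitters' processing notes, and a genome build was not given in the sources used here. Values of 2 kinds were deposited by the authors, a table of whole numbers and a table of rlog values, which are on a log2 scale. The deposited whole numbers were taken as a signal. They lie in each library on a grid, as reads multiplied by a factor (0.687 to 1.9025 here) and rounded would, so counting error cannot be read from them and no count model was used. Dividing by these factors gave 18.3 to 56.5 M reads per library.

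Each value was divided by the library total times a TMM factor (30% of M and 5% of A values trimmed) to give CPM. Genes were tested where 2 or more libraries held a value of 10 or more, which left 13171 of 20687 genes above 0. The test was limma 3.58.1 (R 4.3.3) with a trend on log2(CPM + 0.1), 1 coefficient for each of 5 groups in all 10 libraries (5 residual and 4.81 prior degrees of freedom), and Benjamini-Hochberg adjustment over all genes tested. The steps were tested on simulated data in which few genes changed, evenly up and down, in a single group. The simulation therefore did not test the scaling where most genes are called, as in these data. Alternatives were other scalings, a pseudocount of 1, no filter, only the libraries compared, a replicate block, the rlog values and leaving out each library.

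The 10 genes, the 6 pathway lists, the 9 marker lists and the rules for named genes (at most 8 pathway genes per comparison and the 2 most alike genes for each of the 10) were chosen with earlier results of these data known. Dgat1, Gpam, Cds2 and the 9 motifs were chosen after values were seen. Of 45318 identifiers, 44585 matched a symbol in GENCODE M21, and windows come from RefSeq (GRCm38.p6).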

Additional observations from a re-analysis of the deposited data

Results flagged for a closer look

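The change from untreated cells to the control medium differed between the labels KO and WT by a test of the difference itself, limma's interaction of label and medium, in which 45.9% of all genes tested were called. Negative values mean a smaller rise, or a larger fall, in KO than in WT cells. Among the 10 genes the interaction was -2.65 for Acsl1, -1.97 for Lpcat2, -0.78 for Acsl4, -0.74 for Acsl5, -0.71 for Agpat2, -0.47 for Lpin2 and -0.32 for Gpat4, and it was 1.10 for Acsl3 and 3.01 for Lpin1. Among the other pathway genes it was -5.03 for Dgat2, -2.54 for Acsbg1, -2.47 for Plpp1, -1.92 for Etnk1, -1.72 for Cds1 and -1.64 for Agpat4, and it was 3.17 for Pcyt1b and 1.75 for Mboat1. The Mboat1 call was lost with no filter (1.74, adjusted p = 0.0868) and in 6 of 8 fits that left out 1 library (1.31 to 1.83, adjusted p from 0.0714 to 0.133), and the losses of Gpat4 and Lpin2 are given above. For Dgat2 the change was 0.11 in KO and 5.14 in WT cells, and for Pcyt1b it was -1.47 in KO and -4.64 in WT cells. No result was singled out for a stray library, because no group held 4 or more.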

How the results depend on the processing

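Scaling by totals alone left 5 of the 10 genes called (2 higher, 3 lower) for KO Poly(I:C) against KO control, against 10 (8 higher, 2 lower) with TMM. For the interaction it left 5 (2 higher, 3 lower), against 9 (2 higher, 7 lower) with TMM. Of all 13171 genes tested, it called 10966 and 8213 in these comparisons. Differences that turned over under it were, for KO control against WT control, Gpat4 at 0.11 and Lpin2 at 0.02; for WT control against WT untreated, Gpat3 at -0.37, Gpat4 at -0.16 and Lpin2 at -0.27; for KO Poly(I:C) against KO control, Gpat4 at -0.47, Agpat2 at -0.07 and Lpin2 at -0.04; for KO Poly(I:C) against KO untreated, Gpat3 at -0.17, Gpat4 at -0.46 and Lpin2 at -0.28; for the interaction, Gpat4 at 0.17 and Lpin2 at 0.02; and for untreated cells, Lpin2 at -0.0008. Its medians of all genes were -0.77 for KO Poly(I:C) against KO untreated and 0.52 for the interaction, beside those given above. The authors' own scaling moved the medians to 0.14 (WT control against WT untreated), 0.13 (KO Poly(I:C) against KO control), 0.15 (KO Poly(I:C) against KO untreated), -0.14 (KO control against WT control) and -0.12 (interaction).

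Genes called higher and lower over all genes tested, with TMM, by totals alone and with the authors' scaling, were 4326 and 4354, 2267 and 7690, and 5158 and 3426 for WT control against WT untreated; 4355 and 4775, 2081 and 8885, and 5204 and 3759 for KO Poly(I:C) against KO control; and 4605 and 4855, 2217 and 8703, and 5439 and 3998 for KO Poly(I:C) against KO untreated. They were 4113 and 3940, 7672 and 2076, and 2965 and 4934 for KO control against WT control, and 2934 and 3105, 6518 and 1695, and 2060 and 3819 for the interaction.

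Leaving out 1 library left 1 to 2 of 6 calls for KO control against KO untreated, where all genes called were 1038 to 1590, against 2623 with all libraries; the cause was not tested. Calls of the interaction were lost at -0.25 to -0.34 for Gpat4 and at -0.35 to -0.42 for Lpin2. Between untreated labels, where none of the 10 was called, leaving out 1 library turned directions over, with differences of -0.01 to 0.04 for Acsl1, -0.09 to 0.24 for Acsl3, -0.07 to 0.05 for Acsl4, -0.25 to 0.02 for Acsl5, -0.12 to 0.01 for Gpat4, -0.13 to 0.03 for Agpat2, -0.19 to 0.32 for Lpin1 and -0.05 to 0.06 for Lpin2, and the authors' scaling turned Acsl1 to -0.0005 and Lpin2 to -0.01. Lpcat2 ran from -0.03 to 0.01 in such fits of KO control against KO untreated.

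Whether the replicate numbers pair the samples is not given by the labels. Same-numbered libraries deviated together with correlations of 0.172 to 0.315 over pairs of groups with the same label. Over pairs of a KO and a WT group the correlations were 0.0126 to 0.11, and 6 of all 10 pairs were over 0.1. Pairing was not assumed because it was not over 0.1 in every pair. Pairing within each label alone need not meet that rule, so the rule cannot exclude it. The replicate block used 1 term for both labels, and a block within each label was not tested. With the replicate block, Lpin2 was called lower in KO control than in KO untreated (-0.21), which made 7 calls, and no other call among the 10 changed. All genes called between the untreated labels were 22, against 103 with the block, 14 with no filter, 2 with only the libraries compared and 11 to 57 with 1 library left out. Of the pathway genes named, calls of Mboat1, Slc27a1, Ptdss2, Agpat4 and Dgat1 were lost under some alternatives, as given beside them. Of the named pathway genes, Dgat1 turned over for the interaction with the authors' scaling (-0.02) and Gpam between untreated labels with 1 library left out (-0.0002 to 0.12), neither of which was called. Cds2 was called lower in KO control than in KO untreated under 5 alternatives (adjusted p from 0.0134 to 0.0484) and Dgat1 was called under scaling by totals alone for KO control against WT control (0.66) and the interaction (0.63). With 2 libraries per group and rounded values, small differences and genes under about 1 CPM are the least certain.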
